A study of Nicotiana tabacum with 60 samples.

Results

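The comparison set the wild type SNN, grown autotrophically on soil, against pRB8c, a transplastomic control line that carries the *aadA* marker and was grown on sucrose medium. Its libraries were chosen by their labels: 3 Ribo-seq and 3 RNA-seq libraries of each line, 12 of the 60 in the series. All 78 chloroplast genes of the tables were taken, and 77 of them passed a minimum of 10 counts in 3 or more libraries of both kinds. *matK*, for the intron maturase, was left out with at most 0 footprints and 4 RNA-seq reads in a library.

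By the methods of the study, the soil-grown tobacco received 150 and later 350 µmol photons m-2 s-1, and pRB8c had 3% sucrose in its medium and a light of 5 to 10 µmol photons m-2 s-1. Both had 16 h of light at 22 °C and 8 h of darkness at 18 °C and were harvested with 4 leaves or at an equivalent stage. The growth text in the GEO labels gives the sucrose protocol for every sample, WT SNN included, and the soil growth of WT SNN rests on the methods alone. The labels also name the same cultivar, Petit Havana, for both lines. The study lists the wild type under a name of its own, SNN, so whether the lines share a cultivar is not settled. Each line had been the control of other plants, pRB8c of sucrose-grown knockouts and WT SNN of as-*ATPC*, a nuclear antisense line with reduced ATP synthase. The line (with any difference of cultivar), the marker, the carbon source, the light and the culture vessel therefore differ together and cannot be told apart. The study gives a harvest shortly after the onset of light for soil-grown tobacco and names no time of day for sterile culture. The time of harvest may thus differ as well. The replicates are called biological replicates in the study.

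Chloroplasts translate their own small genome on bacterial-type ribosomes. It codes for the core subunits of the photosynthetic complexes, for the large subunit of Rubisco, and for part of the gene expression machinery, while most other chloroplast proteins are made from nuclear genes. Its genes lie mostly in units that are transcribed together, by the plastid-encoded RNA polymerase, whose subunits are RpoA, RpoB, RpoC1 and RpoC2, and by a nucleus-encoded polymerase, which serves *accD* and the *rpoB* unit among others. Light is known to act on chloroplast gene expression, above all on *psbA*, which codes for the D1 protein of photosystem II (PSII).

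Ribo-seq counts the RNA fragments covered by ribosomes, here called footprints or translation output. RNA-seq gives transcript accumulation, and the change in footprints over the change in RNA is called translation efficiency. Footprints in chloroplast reading frames numbered 1334157 to 2204303 per library in pRB8c and 2304976 to 5331355 in WT SNN, and RNA-seq reads 9687269 to 12723817 over both lines. Every pair of replicates differed by more than counting noise, so all libraries were counted separately.

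The chloroplast took a larger part of the reads on soil. Of the reads mapped to the chloroplast, mitochondrial and nuclear genomes, 30.02% ± 0.850 (SD, n = 3) were from the chloroplast in Ribo-seq of WT SNN and 24.2% ± 2.85 (SD, n = 3) in pRB8c. In RNA-seq the shares were 65.4% ± 0.511 (SD, n = 3) and 59.8% ± 1.46 (SD, n = 3). The lines did not overlap in either kind of library, and the two-sided exact permutation test gave p = 0.1 for both, the smallest value that 3 against 3 samples allow. In tissue of many cells, fewer cells of a type and less RNA per cell cannot be told apart. Fragments of rRNA and tRNA were 61.5% ± 8.34 of the Ribo-seq reads of pRB8c and 32.1% ± 1.34 of those of WT SNN (SD, n = 3, exact permutation p = 0.1). Footprints inside reading frames were 85.9% ± 6.02 of the chloroplast footprints of pRB8c and 92.6% ± 0.582 of those of WT SNN (SD, n = 3), and the lines overlapped (exact permutation p = 0.3). The part of these library differences in the results was not tested.

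A few genes hold most of the reads. The 7 genes *rbcL*, *psbA*, *psaA*, *psaB*, *psbB*, *psbC* and *psbD* took 87.1% of the footprints in reading frames of pRB8c and 82.1% of those of WT SNN, on average over 3 libraries. Of the RNA-seq reads they took 90.3% and 84.7%. The other 71 genes thus shared 12.9% of the footprints in pRB8c and 17.9% in WT SNN, and 9.66% and 15.3% of the RNA. Fold changes below use TMM factors, which set the bulk of the 77 genes at no change, so that each value is relative to most other chloroplast genes. Without these factors (library sizes alone) every log2 fold change moves up, by a median of 0.55 in footprints and 0.67 in RNA. Per read mapped to the 3 genomes it moves up by 0.97 and 0.78. Translation efficiency moves by −0.12 and 0.19.

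On the TMM scale, 15 of 77 genes (19.5%) rose and 21 (27.3%) fell in translation output in WT SNN against pRB8c, with the threshold on the adjusted p of the edgeR quasi-likelihood test set to 0.01. In RNA, 16 (20.8%) rose and 23 (29.9%) fell. In translation efficiency, 12 (15.6%) rose and 16 (20.8%) fell. In either direction these are 46.8%, 50.6% and 36.4% of the genes. The 3 soil libraries lay above the 3 sucrose libraries in 25 genes (32.5%) and below them in 27 (35.1%) in footprints, and in 20 (26%) and 27 (35.1%) in RNA. The median log2 fold change over all 77 genes was 0.05 in footprints, −0.09 in RNA and 0.16 in translation efficiency. No gene reached 4-fold in any measure with edgeR or DESeq2 on this scale, where 49, 46 and 53 genes had an unadjusted p under 0.05.

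**Figure D1:**
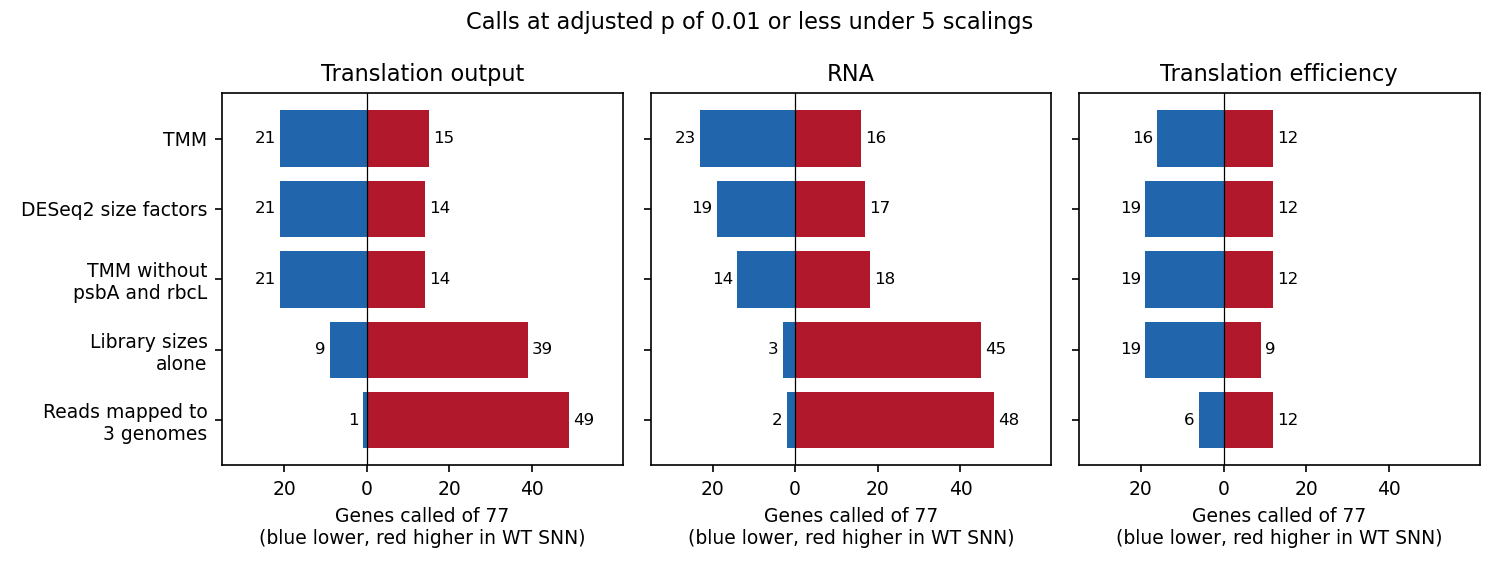
Number of genes called lower (blue, left) and higher (red, right) in WT SNN than in pRB8c by edgeR, of 77 genes tested, under 5 scalings (rows) and for each of the 3 measures (panels). TMM, DESeq2 size factors and TMM without *psbA* and *rbcL* give similar counts, whereas per read mapped to 3 genomes 49 genes are higher and 1 is lower in footprints.

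In footprints and RNA, library sizes alone and mapped reads move all values up, so that they keep rises and end falls by their construction. A rise there that they keep is no sign of stability. Of the 15 genes higher in footprints, 14, all but *ndhI*, were called higher under each of the 4 other scalings. Of the 21 lower ones, only *accD* was called lower under each of the 4. For RNA these counts were 16 of 16 higher genes and 2 of 23 lower ones, *psbA* and *psaC*. For translation efficiency, which library sizes alone move down and mapped reads move up, they were 8 of 12 and 6 of 16. A fall of another gene in footprints or RNA is therefore a statement about its place among the chloroplast genes. No scaling here measures an amount in the tissue, and this holds for *accD*, *psbA* and *psaC* as well.

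Of the 15 genes with higher footprints, 5 also had higher RNA, 10 had no RNA call and 0 had lower RNA. Of the 21 with lower footprints, 12 also had lower RNA, 7 had no RNA call and 2 had higher RNA. In the latter pair, *ndhJ* and *psbF*, footprints and RNA moved in opposite directions.

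**Figure D2:**
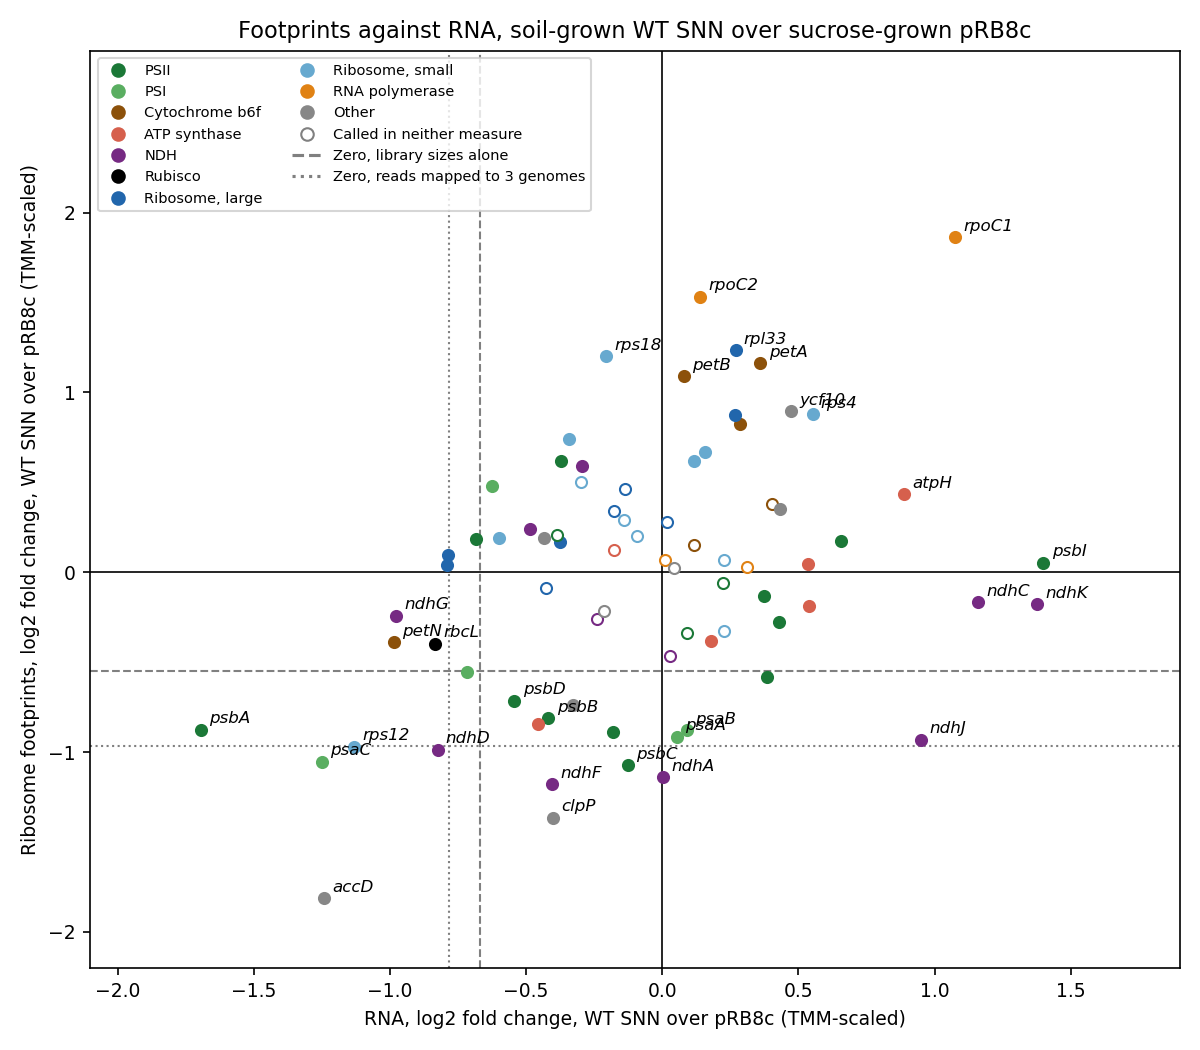
Log2 fold change in WT SNN over pRB8c of RNA (horizontal axis) and of ribosome footprints (vertical axis) for 77 chloroplast genes, TMM-scaled and coloured by complex, with open symbols for genes called in neither measure. Dashed and dotted grey lines mark where zero would lie with library sizes alone and per read mapped to 3 genomes. *rpoC1* lies at the upper right, *accD* at the lower left, and *ndhC*, *ndhK* and *psbI* rose in RNA without a call in footprints.

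Among the genes of the plastid-encoded RNA polymerase, *rpoC1* and *rpoC2* rose in footprints, and *rpoA* and *rpoB* had no call in any measure. *rpoC1* (Ribo-seq window 21505 to 23078 on the minus strand of the chloroplast genome the authors mapped to) had 202, 135 and 109 footprint CPM (TMM-scaled counts per 1e+06) in the pRB8c libraries. In WT SNN it had 580, 583 and 447. All soil libraries lay above all sucrose libraries, by 3.64-fold (1.86 ± 0.23 on the log2 scale, where the error is the standard error (SE), adjusted p = 0.000141 by edgeR). This was the largest rise in translation output.

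*rpoC1* RNA was 622, 626 and 642 CPM in pRB8c and 1384, 1384 and 1207 in WT SNN, a 2.10-fold rise. *rpoC2* (window 17180 to 21306, minus strand) went from 595, 350 and 341 footprint CPM to 1366, 1190 and 1160. That was a 2.89-fold rise (1.53 ± 0.21 on the log2 scale, adjusted p = 0.000298 by edgeR) while its RNA had no call (log2 fold change 0.14, SE 0.10). Its translation efficiency rose 2.63-fold (SE 0.23 on the log2 scale, edgeR adjusted p = 7.84e-05). *rpoB*, first in the same unit, had log2 fold changes of 0.07 (SE 0.17) in footprints and 0.01 (SE 0.11) in RNA, and *rpoA* 0.03 (SE 0.18) and 0.31 (SE 0.13). The raw footprint counts behind *rpoC1* in pRB8c were 270, 140 and 205.

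The cytochrome b6f complex, which carries electrons between the photosystems, had 3 of 6 genes higher and 0 lower in footprints, beside 19.5% and 27.3% of all genes. The median log2 fold change was 0.60 beside 0.05 over all genes. *petA* codes for cytochrome f (window 64350 to 65272, plus strand). It had 1853, 1707 and 1941 footprint CPM in pRB8c and 4260, 3718 and 4339 in WT SNN. The groups lay far apart, with a 2.24-fold rise (1.16 ± 0.11 on the log2 scale, adjusted p = 2.97e-05 by edgeR).

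*petB* codes for cytochrome b6 (window 78224 to 78825, plus strand) and had 2571, 3579 and 2978 footprint CPM on sucrose against 6563, 6101 and 6776 on soil. It rose 2.13-fold (1.09 ± 0.13 on the log2 scale, adjusted p = 0.000134 by edgeR). *petG*, a small subunit, rose 1.77-fold, a call that leaving out any of 5 of the 6 libraries ended. *petA* RNA rose 1.28-fold, and *petB* RNA had no call (log2 fold change 0.08, SE 0.10). Translation efficiency rose 1.74-fold for *petA* and 2.02-fold for *petB* (edgeR adjusted p = 0.000136 and 5.41e-05), and both calls held under each scaling. *petD*, which follows *petB* in the unit and codes for subunit IV, had no call in footprints, RNA or efficiency (log2 fold changes 0.15, 0.12 and 0.04). *petN* RNA fell 1.98-fold, with 288, 267 and 371 CPM in pRB8c and 137, 161 and 166 in WT SNN.

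Genes of the photosystem cores had lower footprints relative to the other chloroplast genes, a direction that did not hold per read mapped to 3 genomes for most of them. Over all 77 genes 27.3% fell and 19.5% rose, with a median log2 fold change of 0.05. Of the 5 photosystem I (PSI) genes 4 fell and 0 rose in footprints (median −0.88). Of the 15 PSII genes, counted with the assembly factor gene *psbN*, 6 fell and 0 rose (median −0.28).

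*psaA*, a reaction centre subunit of PSI, had 100932, 91044 and 96319 footprint CPM in pRB8c and 53482, 50216 and 49244 in WT SNN. It fell 1.88-fold (−0.91 ± 0.07 on the log2 scale, adjusted p = 1.1e-05 by edgeR), and *psaB*, the other reaction centre subunit, fell 1.84-fold. As plain shares of footprints they went from 7.95% to 6.17% and from 7.16% to 5.70%. Per read mapped to 3 genomes, *psaA* had a log2 fold change of 0.03 and *psaB* one of 0.07, with no call. Their RNA had no call on the TMM scale (log2 fold changes 0.05 and 0.09), but its share of the reads was higher on soil, 9.43% against 5.73% for *psaA*. Translation efficiency of *psaA* and of *psaB* was 1.96-fold lower, called under every scaling (edgeR adjusted p = 1.54e-05 and 1.32e-05 with TMM).

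*psaC* codes for the subunit that holds terminal iron-sulfur clusters of PSI (window 119156 to 119361, minus strand). Its RNA fell from 2916, 3131 and 3425 CPM to 1334, 1245 and 1404, a 2.38-fold change (−1.25 ± 0.10 on the log2 scale, adjusted p = 9.09e-09 by edgeR). The groups were well apart. Its footprints were 5671, 7439 and 13008 CPM in pRB8c and 4201, 3910 and 4479 in WT SNN. That 2.08-fold fall (edgeR adjusted p = 0.00743) rests on replicates that differ over 2-fold in pRB8c, and it stayed called in 1 of 6 fits that left out a library.

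*psbC*, for the CP43 antenna of PSII, fell most among PSII genes in footprints. It had 67591, 75313 and 74305 CPM in pRB8c and 35497, 33958 and 33923 in WT SNN, a 2.10-fold fall (−1.07 ± 0.07 on the log2 scale, adjusted p = 7.21e-06 by edgeR). Its RNA had no call (log2 fold change −0.13, SE 0.13), and its translation efficiency fell 1.92-fold. *psbD*, for the D2 protein, shares its transcripts with *psbC*. It fell 1.64-fold in footprints and 1.46-fold in RNA, with no call in efficiency. The ratio of *psbC* to *psbD* counts, which no scaling changes, was 1.32, 1.23 and 1.45 in the footprints of pRB8c and 1.04, 1.04 and 1.03 in WT SNN. In RNA it was 1.94, 1.76 and 1.87 in pRB8c and 2.48, 2.44 and 2.49 in WT SNN. Every WT SNN library thus had a lower footprint ratio and a higher RNA ratio than every pRB8c library. *psbB*, for the CP47 antenna, fell 1.76-fold in footprints and 1.34-fold in RNA. *psbE* and *psbF*, for the subunits of cytochrome b559, fell by 0.89 and 0.58 on the log2 scale in footprints.

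*psbA* (window 546 to 1567, minus strand) had the largest fall in RNA. Its RNA was 305190, 306014 and 437036 CPM in pRB8c and 123423, 101101 and 99071 in WT SNN. The groups were far apart, with a 3.24-fold fall (−1.70 ± 0.18 on the log2 scale, adjusted p = 1.71e-07 by edgeR), called lower under each scaling. As a plain share of RNA-seq reads it was 27.4% ± 3.52 on sucrose and 13.6% ± 1.43 on soil (SD, n = 3, exact permutation p = 0.1). Its footprints were 134708, 252111 and 199404 CPM in pRB8c and 111745, 102658 and 105300 in WT SNN, a 1.83-fold fall on the TMM scale that 4 of 6 left-out libraries ended. The share of footprints overlapped between the lines, with 11.4% to 19.6% in pRB8c and 12.7% to 13.1% in WT SNN (exact permutation p = 0.4). Translation efficiency of *psbA* stood at 0.82 ± 0.25 (log2 scale, adjusted p = 0.0102 by edgeR), just outside the threshold, and was called higher with library sizes alone and per mapped read.

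*rbcL*, for the large subunit of Rubisco (window 57610 to 59003, plus strand), took the most reads in both kinds of library, not corrected for length. It had 508103, 495848 and 436502 footprint CPM in pRB8c and 377209, 349681 and 367375 in WT SNN, a TMM-scaled fall of 1.32-fold. Its plain share of footprints went the other way, from 39.6% ± 3.10 to 44.2% ± 0.145 (SD, n = 3, exact permutation p = 0.1). RNA fell 1.78-fold with TMM (edgeR adjusted p = 0.000477), and its plain share fell from 35.3% to 31.5%. The ratio of *psbA* to *rbcL* counts, free of any scaling, was 0.790, 0.627 and 0.937 in RNA of pRB8c and 0.472, 0.446 and 0.377 in RNA of WT SNN. In footprints the lines overlapped, with 0.265, 0.508 and 0.457 against 0.296, 0.294 and 0.287.

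**Figure D3:**
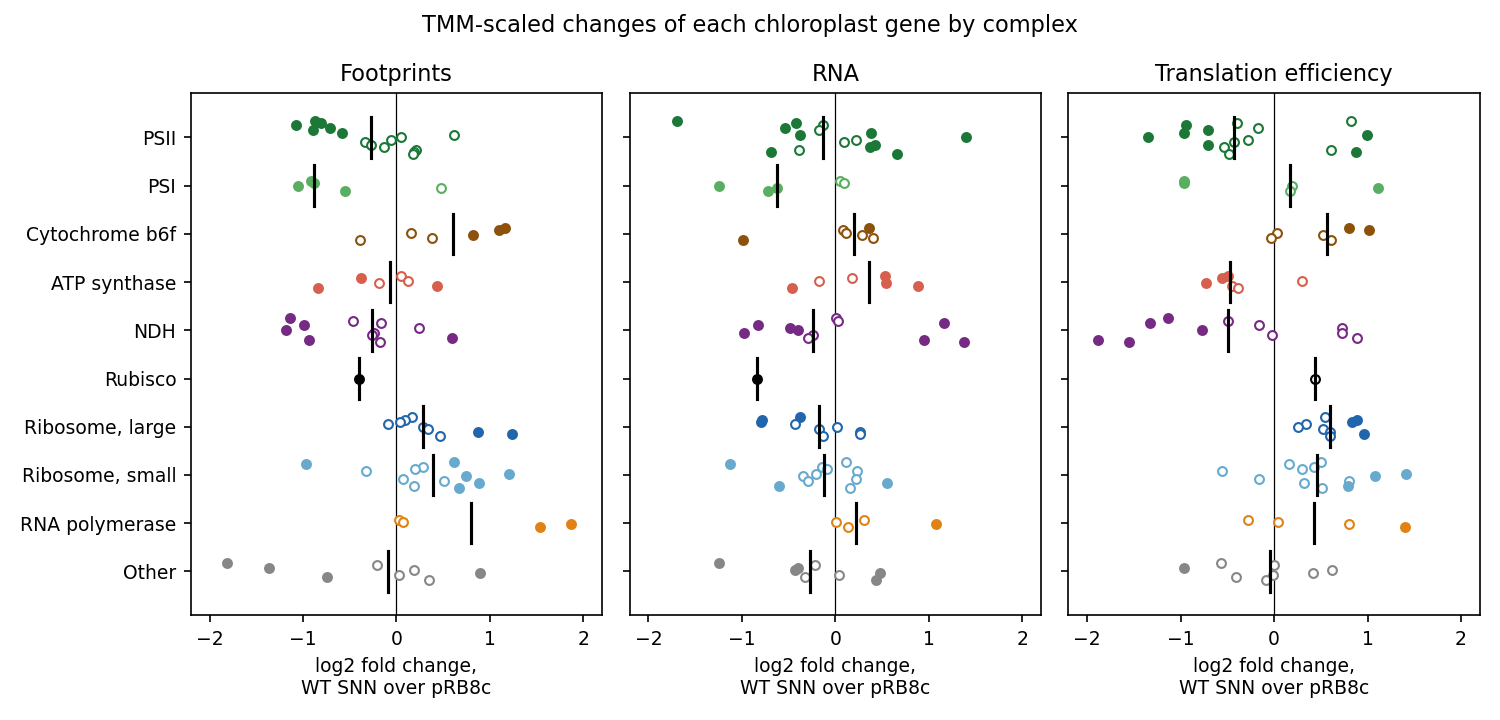
Log2 fold change in WT SNN over pRB8c of each gene, by complex (rows) and measure (panels), TMM-scaled. Filled points are called by edgeR, open points are not, and black bars mark the median of each group, −0.88 for PSI and 0.60 for the cytochrome b6f complex in footprints.

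Of the 6 genes of the ATP synthase, 3 rose and 1 fell in RNA (median log2 fold change 0.36), beside 20.8% and 29.9% of all genes. In footprints 1 rose and 2 fell (median −0.07), shares near the 19.5% and 27.3% of all genes. *atpH*, for the subunit of the membrane ring, rose 1.85-fold in RNA, from 1645, 1938 and 1928 CPM to 3437, 3481 and 3274. Its footprints rose 1.35-fold. *atpA* RNA rose 1.45-fold with no call in footprints, and its translation efficiency fell 1.40-fold. *atpI* fell 1.79-fold in footprints and 1.37-fold in RNA. *atpB* footprints fell by 0.38 on the log2 scale with TMM but were called higher per read mapped to 3 genomes, and its RNA had no call.

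The NDH complex, an NADH dehydrogenase-like complex that feeds electrons back into the photosynthetic chain, had 1 of 11 genes higher and 4 lower in footprints, beside 19.5% and 27.3% of all genes. Its RNA had 3 higher and 4 lower, counts near the 20.8% and 29.9% of all genes, but those that rose lie in 1 unit. *ndhC*, *ndhK* and *ndhJ*, which share a transcript, all rose in RNA, by 2.24-fold, 2.59-fold and 1.93-fold. *ndhK* RNA was 484, 425 and 447 CPM in pRB8c and 1206, 1232 and 1081 in WT SNN. *ndhJ* RNA was 407, 403 and 439 against 838, 813 and 760. These groups did not come near each other.

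Their footprints did not follow. *ndhJ* (window 51005 to 51441, minus strand) had 562, 442 and 513 footprint CPM in pRB8c and 281, 266 and 249 in WT SNN, a 1.91-fold fall. *ndhC* and *ndhK* had no call (log2 fold changes −0.17 and −0.18). Translation efficiency fell 3.69-fold for *ndhJ* (−1.88 ± 0.18 on the log2 scale, adjusted p = 2.91e-07 by edgeR), the largest change in that measure. It fell 2.93-fold for *ndhK* and 2.52-fold for *ndhC*. The calls of *ndhJ* and *ndhK* held under every scaling and in all 12 fits that left out a library.

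The *psaC* unit, which holds *psaC* and 6 *ndh* genes, had 4 of 7 genes lower and 0 higher in RNA (median log2 fold change −0.49), beside 29.9% and 20.8% of all genes. *ndhD*, next to *psaC*, fell 1.98-fold in footprints and 1.77-fold in RNA. *ndhG* RNA fell 1.97-fold. *ndhA* footprints fell by 1.14 on the log2 scale with no RNA call (log2 fold change 0.00, SE 0.10), and its translation efficiency fell by 1.14. *ndhI*, its neighbour, rose by 0.59 on the log2 scale in footprints. *ndhF*, which stands alone, had 3196, 2354 and 1999 footprint CPM in pRB8c and 1131, 1135 and 1068 in WT SNN, a 2.26-fold fall. *ndhH* had no call in any measure.

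**Figure D4:**
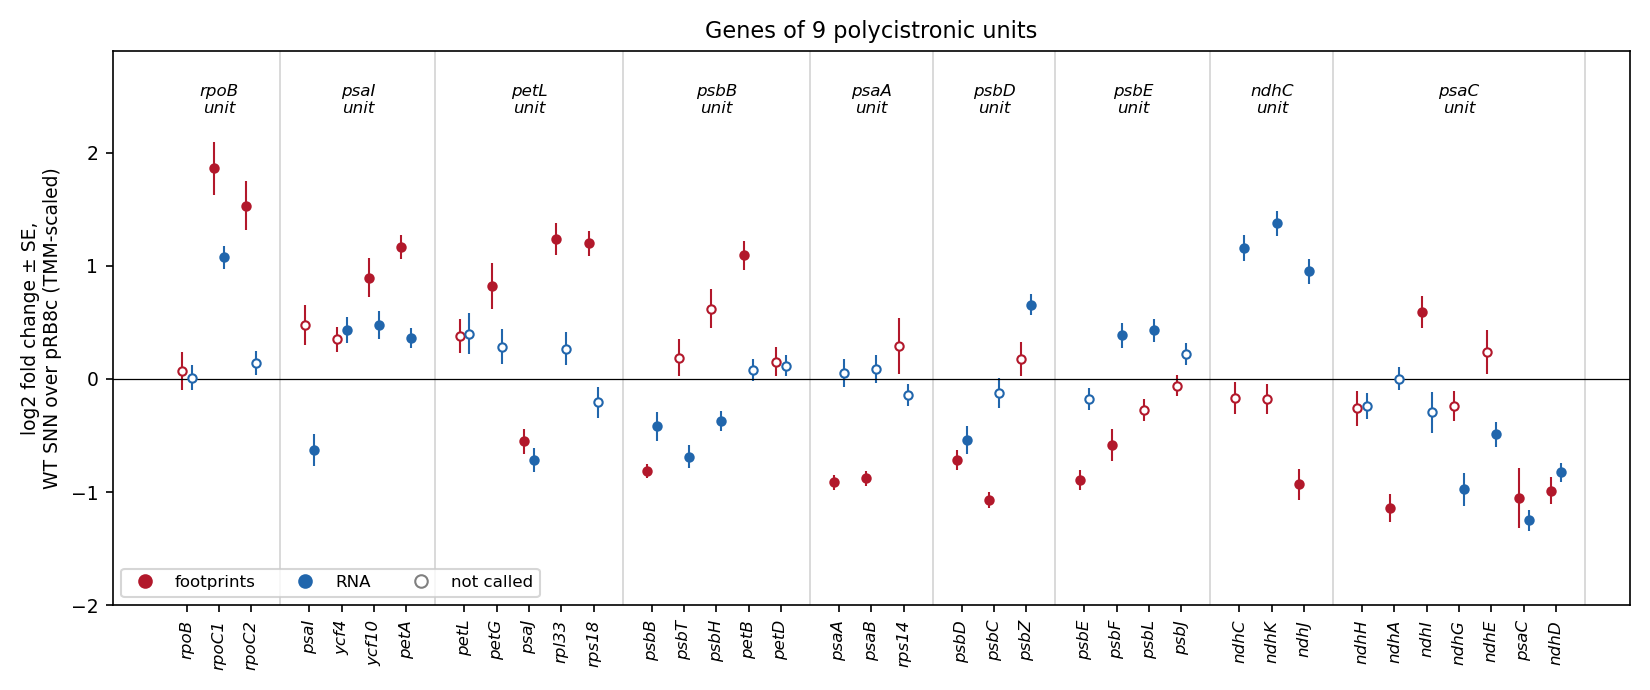
Log2 fold change ± SE in WT SNN over pRB8c of footprints (red) and RNA (blue) for the genes of 9 units transcribed together, TMM-scaled, with filled symbols for genes called by edgeR. The *ndhC* unit has RNA above and footprints below zero, and in the *psbB* unit *psbB* fell and *petB* rose in footprints.

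Of all genes, 19.5% rose and 27.3% fell in footprints, and 20.8% and 29.9% in RNA, against which the ribosomal protein genes are read. In the small subunit 5 of 12 genes rose and 1 fell in footprints (median log2 fold change 0.40), and 1 rose and 2 fell in RNA (median −0.12). In the large subunit 2 of 9 rose and 0 fell in footprints (median 0.28), and 0 rose and 3 fell in RNA (median −0.18). *rps18* had 526, 492 and 460 footprint CPM in pRB8c and 1132, 1072 and 1187 in WT SNN, a 2.30-fold rise (1.20 ± 0.11 on the log2 scale, adjusted p = 2.99e-05 by edgeR). Its RNA had no call, and its translation efficiency rose 2.67-fold, the largest rise in that measure. *rpl33*, its neighbour, had 257, 245 and 326 footprint CPM on sucrose and 668, 663 and 634 on soil, a 2.36-fold rise.

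*rps4* rose 1.84-fold in footprints and 1.47-fold in RNA. *rps19* and *rpl16* rose in translation efficiency, 2.11-fold and 1.84-fold, though library sizes alone ended both calls. *rps12*, whose RNA is joined from separate transcripts, went against the group. It fell 1.96-fold in footprints and 2.19-fold in RNA, and its counts over the inverted repeat are uncertain.

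Among the remaining genes, *accD* had the largest fall in footprints. It codes for a subunit of the acetyl-CoA carboxylase that starts fatty acid synthesis (window 59808 to 61306, plus strand). Its footprints were 1706, 1562 and 1508 CPM in pRB8c and 474, 456 and 430 in WT SNN. No WT SNN library came near a pRB8c library, and the fall was 3.51-fold (−1.81 ± 0.11 on the log2 scale, adjusted p = 6.79e-06 by edgeR). Even per read mapped to 3 genomes its log2 fold change was −0.85 and called. *accD* RNA fell 2.37-fold, from 701, 669 and 694 CPM to 297, 325 and 249, a call lost with library sizes alone and per mapped read. Translation efficiency had a log2 fold change of −0.57 (edgeR adjusted p = 0.0102), just outside the threshold.

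*clpP*, for the proteolytic subunit of the Clp protease, had 1379, 1341 and 1232 footprint CPM in pRB8c and 548, 488 and 498 in WT SNN. It fell 2.57-fold (edgeR adjusted p = 1.25e-05), with a 1.32-fold fall in RNA and a 1.94-fold fall in efficiency. *ycf10*, for an envelope membrane protein and cotranscribed with *petA*, rose 1.86-fold in footprints and 1.39-fold in RNA. *ycf1* and *ycf2*, the longest reading frames, had no call in footprints. Of the 4 genes listed with promoters of the nucleus-encoded polymerase alone, *rpoC1* and *rpoC2* rose, *accD* fell and *rpoB* had no call in footprints.

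*psbI*, for a small PSII subunit, had the largest rise in RNA. It had 261, 299 and 260 RNA CPM in pRB8c and 687, 723 and 756 in WT SNN, a 2.64-fold rise (1.40 ± 0.12 on the log2 scale, adjusted p = 2.46e-08 by edgeR). Its footprints overlapped between the lines, at 1520 to 1880 and 1576 to 2028 CPM. Translation efficiency fell 2.55-fold. *psbZ*, at the end of the *psbD* unit, rose 1.58-fold in RNA. In the *psbB* unit, *psbH* RNA fell by 0.37 on the log2 scale while its efficiency rose 1.99-fold. *psaI* RNA fell 1.54-fold and its efficiency rose 2.16-fold.

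Another soil-grown and another sucrose-grown line, as-*ATPC* and RB70, share no library with the lines above. RB70 is a transplastomic control line like pRB8c. These lines differ in the antisense gene as well, and the RB70 libraries hold only 160029 to 253111 footprints. RNA-seq of RB70 stood apart. Of the 12 genes with introns, 9 had at least 4 times the RNA level of pRB8c, up to 21.5 times in *rpoC1*, against 1 of the 65 other genes, and reads in reading frames were 95.5% to 111% of its chloroplast reads. RNA and efficiency of genes with introns are therefore uncertain in RB70.

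With edgeR on the TMM scale, 22 of 77 genes (28.6%) were higher and 18 (23.4%) lower in footprints of as-*ATPC* against RB70. In RNA 21 (27.3%) were higher and 21 (27.3%) lower, and in translation efficiency 28 (36.4%) and 15 (19.5%). Without the 12 genes with introns, 20 were higher and 11 lower in RNA, and 17 and 14 in efficiency, of 65 genes. Of the 15 genes higher in WT SNN, 14 had the same sign there, as had 62.3% of all genes, and 10 were called in the same direction. Of the 21 lower ones, 13 had the same sign, beside 37.7% of all genes, 8 were called and 1, *ndhJ*, was called in the opposite direction. Outside the genes with introns, 10 of 14 genes higher in RNA and 13 of 19 lower ones had the same sign, beside 53.8% and 46.2% of all such genes with that sign. In efficiency 7 of 9 higher genes and 12 of 13 lower ones had it, beside 52.3% and 47.7%. Of these, 4 and 8 were called in the same direction. *psaI*, higher in efficiency in WT SNN, was called lower there, with a log2 fold change of −1.94.

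*rpoC1* and *rpoC2* footprints had log2 fold changes of 2.79 (SE 0.42) and 2.89 (SE 0.40) in as-*ATPC* over RB70, both called. Few footprints stand behind them in the shallow RB70 libraries. There *rpoC1* held 0.0095%, 0.031% and 0.0069% of the footprints in reading frames, and *rpoC2* 0.028%, 0.060% and 0.014%. Footprints of *rps18* had a log2 fold change of 1.79, those of *rpl33* 1.72 and those of *petB* 1.24, all called. *petA* had 0.55 and *accD* −0.59, both outside the threshold (edgeR adjusted p = 0.0153 and 0.0164). Of the 6 cytochrome b6f genes, 2 were called higher and 2 lower in footprints there (median 0.15), beside 28.6% and 23.4% of all genes. The lower pair was *petD* with −0.67 and *petN* with −0.93, so the rise was not shared by the whole complex. *psaC* had −2.24 in footprints and −0.99 in RNA, both called. *ndhC*, *ndhK* and *ndhJ* RNA had 1.28, 1.62 and 1.42, all called, but here their footprints had 0.47, 1.65 and 1.35, and the latter pair was called higher. Their efficiency had −0.80, 0.03 and −0.07, none called, so the large falls of *ndhK* and *ndhJ* in that measure were not repeated.

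Other results were not repeated. *psbA* RNA had a log2 fold change of −0.05 (SE 0.25) in as-*ATPC* over RB70, and *rbcL* had −0.04 in footprints and −0.02 in RNA, none called. In 4 lines on 1 TMM scale, *psbA* RNA averaged 396999 CPM in pRB8c, 111608 in RB70, 134284 in WT SNN and 102615 in as-*ATPC*, so that pRB8c alone stood high. *psbI* RNA averaged 312 CPM in pRB8c and 838 to 898 in the other 3 lines. *clpP* footprints averaged 1448 CPM in pRB8c, 739 in RB70, 568 in WT SNN and 755 in as-*ATPC*. *ndhF* footprints averaged 2776 CPM in pRB8c and 1237 to 1758 in the other 3 lines. In as-*ATPC* over RB70, footprints of *ndhF*, *ndhA* and *ndhD* had log2 fold changes of 0.28, 0.48 and 0.12, none called. Over all 11 NDH genes, 6 were called higher and 0 lower in footprints there (median 0.75), beside 28.6% and 23.4% of all genes. Only 2 of the 11 kept the sign they had in WT SNN over pRB8c. *psaA* footprints averaged 105515 CPM in pRB8c, 58878 in RB70, 56708 in WT SNN and 58915 in as-*ATPC*.

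Across these 4 lines, 15 genes (19.5%) had footprints in all 6 soil libraries above all 6 sucrose libraries, and 11 (14.3%) had them below. These include the WT SNN and pRB8c libraries behind the calls, so an overlap with the calls is partly fixed in advance and is given as a description. The higher ones held 13 of the 15 genes called higher in WT SNN, among them *petA*, *petB*, *petG*, *rpoC1*, *rpoC2*, *rps18* and *rpl33*. The lower ones held 8 of the 21 called lower, among them *accD*, *psaB*, *psaC*, *psbC*, *psbE* and *psbF*. In RNA 8 genes (10.4%) lay above and 11 (14.3%) below. *ndhC*, *ndhK*, *ndhJ* and *psbZ* were among those above, and *accD*, *psaC* and *ndhD* among those below. Of the 11 below, 4 have introns (*clpP*, *rpl2*, *rpl16* and *rps12*) and rest in part on the uncertain RB70 values.

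**Figure D5:**
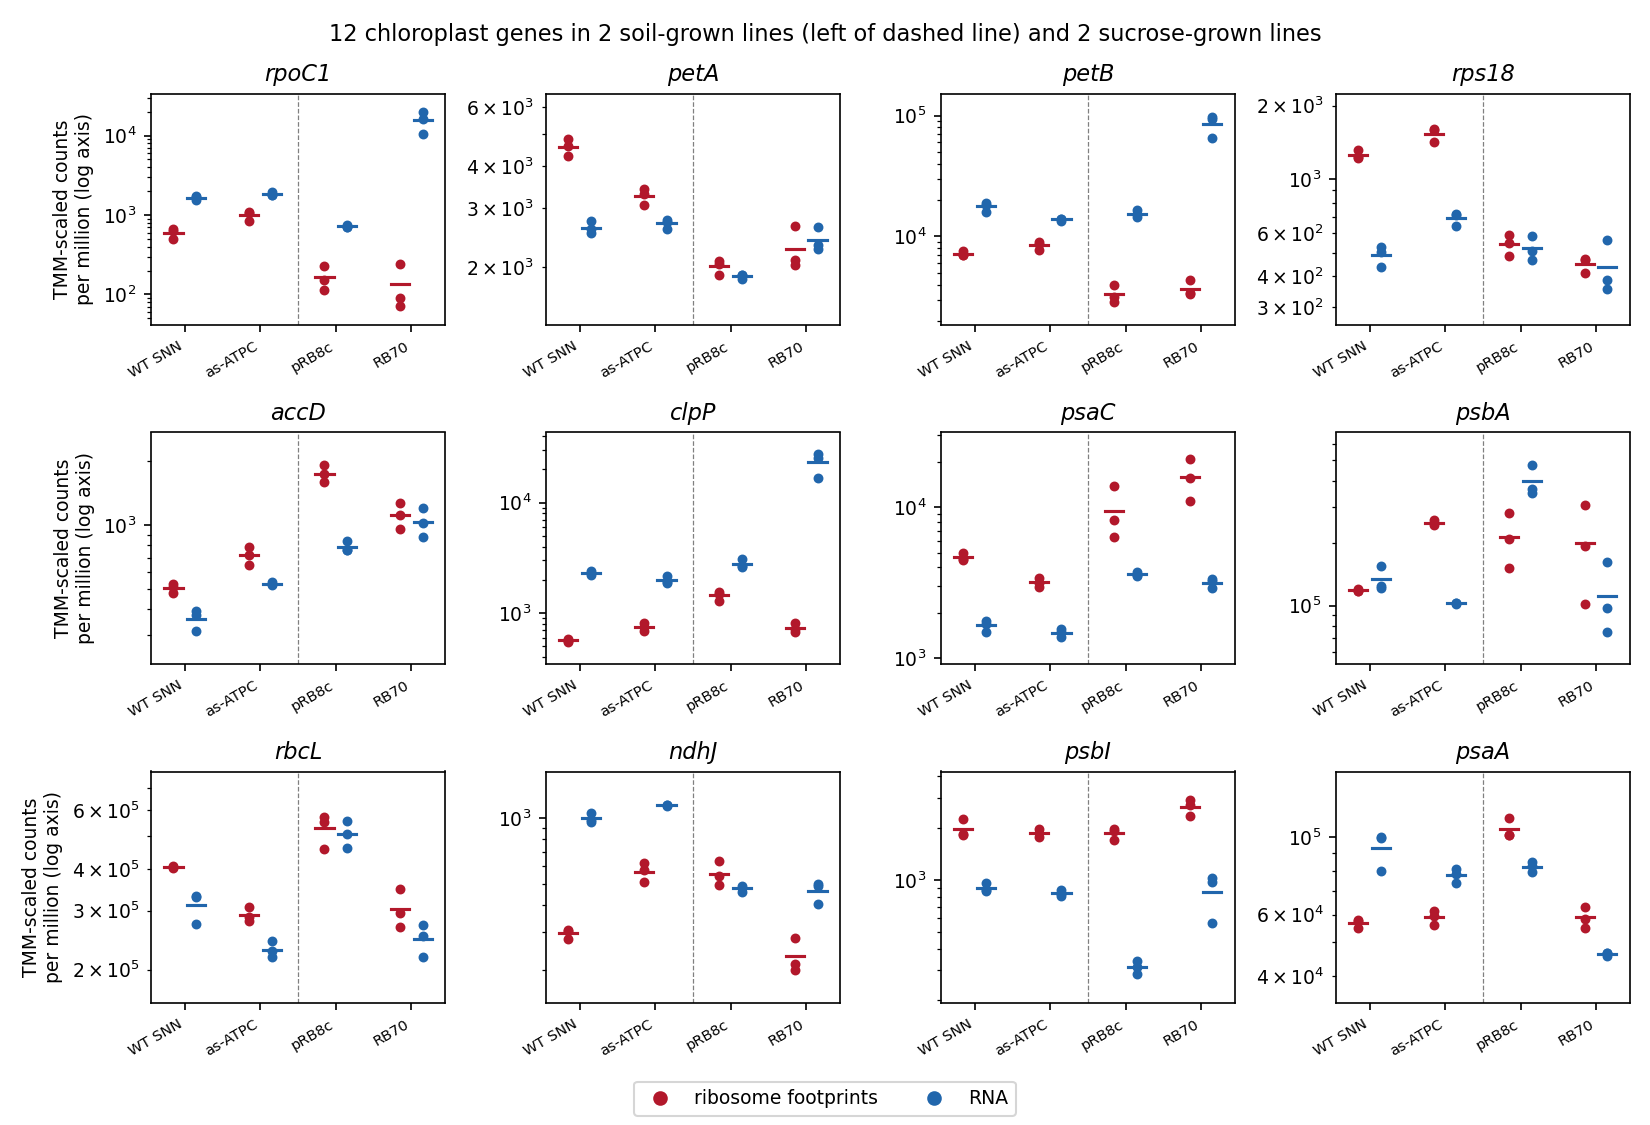
TMM-scaled CPM (log axis) of footprints (red) and RNA (blue) for 12 genes in each of 3 libraries of the soil-grown lines WT SNN and as-ATPC, left of the dashed line, and of the sucrose-grown lines pRB8c and RB70. Points are libraries and bars are means. *rpoC1*, *petA*, *petB* and *rps18* footprints are higher in both soil-grown lines, whereas *psbA* RNA is high and *psbI* RNA low in pRB8c alone.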

How the data were processed

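The authors mapped reads with STAR 2.7.1a to rRNA and tRNA, chloroplast, mitochondrial and nuclear sequences in turn, kept footprints of 20 to 39 nt, and counted reads per gene with featureCounts without the first 10 and last 30 nt, and in Ribo-seq only over the last exon of genes with introns. The submitters' processing notes also list cutadapt, SAMtools, bedtools and FastQC. The deposited Ribo-seq values are counts. The deposited RNA-seq values are estimated counts, with 94 values in 6 genes not whole, and were rounded. The deposited tables also hold 60 RPKM columns, which were not used. Whether the counting used strand was not given in the sources read, and *psbN* is uncertain, as are genes in the inverted repeat and the overlapping *psbD* and *psbC*, and *atpB* and *atpE*.

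Counts of the 77 genes with at least 10 counts in at least 3 libraries were tested with edgeR 4.0.16 in R 4.3.3 (quasi-likelihood test, TMM factors within each assay, Benjamini-Hochberg adjustment over 77 genes). The threshold for a call was an adjusted p of 0.01. Translation efficiency was the interaction of assay and line in 1 model over 12 libraries. CPM values are counts over TMM-scaled library sizes and are not corrected for gene length, so they are compared between lines and not between genes. Shares were compared by two-sided exact permutation tests. Alternatives used DESeq2 1.42.0, limma 3.58.1 on RPKM computed from the counts with pseudocounts of 1, 0.1 and 10, other scalings, filters and lines. The fits were tested on simulated data. With 77 genes, 100% of log2 changes of 1 were recovered in footprints and in RNA, and 60% in efficiency (median estimate 0.80). With 400 genes drawn again from these, efficiency recovered 94%. A missing call in efficiency can thus hide a change of that size. Named were the 8 genes with the largest rise and the 8 with the largest fall per measure, among called genes with no overlap between lines (for efficiency, called only), and a fixed list. *petG*, *psbE*, *ndhI* and *atpI* were named after their values were seen. Members and lists were chosen with earlier results of these data known. Nuclear genes and markers of cell types were not analysed here.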

Additional observations from a re-analysis of the deposited data

How the results depend on the processing

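The number of genes called (36 in translation output, 39 in RNA and 28 in translation efficiency) was within 1.5 times of these values with DESeq2, edgeR's legacy fit, other filters on low counts, and most scalings. All 10 lines in 1 fit gave 17, 16 and 10 genes and a further minimum of 2-fold gave 12, 8 and 10. Efficiency had 18 genes per read mapped to 3 genomes, 51 at an adjusted p of 0.05, and 49 with RB70 in place of pRB8c. Leaving out 1 library at a time gave 23 to 35 genes in translation output, 24 to 35 in RNA and 27 to 41 in efficiency. Genes past 4-fold, 0 in each measure with TMM, numbered 2 in translation output, 2 in RNA and 1 in efficiency with library sizes alone. Per mapped read they numbered 6 in translation output and 2 in RNA, as they did with limma at each pseudocount. TMM without *psbA* and *rbcL* gave 1 in efficiency, all 10 lines gave 1 in translation output, and RB70 gave 1, 8 and 12. Left-out libraries gave 0 to 1 in translation output, 0 to 0 in RNA and 0 to 0 in efficiency. The difference in chloroplast share of mapped reads was 4.91 to 7.45 percentage points for Ribo-seq, and 4.93 to 6.35 for RNA-seq, over the left-out libraries.

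Some log2 fold changes below zero with TMM turned positive under scalings that set no gene at no change. With library sizes alone, translation output of *rbcL* was 0.16 and of *atpB* 0.17, and RNA of *psbB* was 0.25, of *psbD* 0.13, of *clpP* 0.28 and of *ycf1* 0.23. Per mapped read, translation output of *rbcL* was 0.55, of *psbA* 0.14, of *psbB* 0.14, of *psbD* 0.26, of *psaA* 0.035, of *psaB* 0.073, of *atpB* 0.58 and of *rps12* 0.026. RNA was 0.37 for *psbB*, 0.24 for *psbD*, 0.39 for *clpP* and 0.34 for *ycf1*.

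On limma's log2(RPKM + pseudocount) scale, with pseudocounts of 1, 0.1 and 10 in that order, translation output of *rbcL* was 0.59, 0.59 and 0.59, of *psbA* 0.15, 0.15 and 0.15, of *psbB* 0.17, 0.17 and 0.17, and of *psbD* 0.27, 0.27 and 0.27. It was 0.065, 0.065 and 0.065 for *psaA*, 0.10, 0.10 and 0.1 for *psaB*, 0.013, 0.013 and 0.013 for *psaC*, and 0.0023, 0.0025 and 0.00079 for *ndhD*. It was 0.60, 0.60 and 0.60 for *atpB* and 0.026, 0.026 and 0.026 for *rps12*. RNA was 0.37, 0.37 and 0.37 for *psbB*, 0.25, 0.25 and 0.25 for *psbD*, 0.39, 0.39 and 0.39 for *clpP*, and 0.33, 0.34 and 0.25 for *ycf1*.

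With RB70 in place of pRB8c, translation output of *rbcL* was 0.22 and of *psbB* 0.042. RNA was 0.50 for *rbcL*, 0.41 for *psbA*, 0.82 for *psbB*, 0.98 for *psbD*, 0.25 for *petN*, −3.05 for *rpoC1* and −0.16 for *rps4*. Efficiency was −1.73 for *psaI*, 1.24 for *ndhA*, 0.014 for *atpA* and 2.57 for *clpP*. *rpoC1*, *ndhA* and *clpP* hold introns, and these values are uncertain because RB70 RNA stood apart there. The cause was not tested.

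No source says that a replicate number marks shared plants, and not every same-numbered pair deviated together. Same-numbered libraries of WT SNN and pRB8c had deviations correlated at 0.46, −0.26 and 0.30 in Ribo-seq and −0.20, 0.07 and 0.38 in RNA-seq. Ribo-seq and RNA-seq libraries of 1 number correlated at 0.53, 0.13 and 0.25 in WT SNN and 0.38, 0.06 and 0.20 in pRB8c. With the replicate number as a block, 36 genes were called in translation output and 41 in RNA. In efficiency the block of line and number raised the calls from 28 to 40. The comparison of as-*ATPC* with RB70 without genes with introns, and of 4 lines on 1 scale, were chosen after seeing the data. Depth limits *rpoC1* and *ycf10* footprints in pRB8c most among the genes described, and 3 samples per line limit the shares. In RB70, with fewer footprints per library, depth also limits *rpoC1* and *rpoC2*.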
